A study of Canis lupus familiaris with 37 samples.

Results

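Among 32704 Ensembl genes counted in canine lymphomas, lymph nodes and lymphoid cell lines, 115 genes were expressed in both T-cell lines and practically silent in the CLBL-1 pair of B-cell lines. They were chosen by a rule on CPM, a gene's count divided by the sum over all Ensembl genes of the sample, times 1000000. Each gene had at least 10 CPM in all 4 OSW and both CL-1 samples and less than 1 CPM in all 10 CLBL-1 and CLBL-1M samples. No gene had to be removed for being in the study's lists of microRNA and lncRNA genes. The values in these 16 samples chose the members, and they are given here as a description with no test. The opposite set, on in CLBL-1 and CLBL-1M and off in OSW and CL-1, held 69 genes.

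Of the 37 samples, 4 came from lymph nodes without a tumor (controls), and the others were 12 B-cell lymphomas, 3 intestinal lymphomas, 1 T-cell lymphoma and 17 samples of 5 lymphoid cell lines. OSW (4 samples) and CL-1 (2 samples) are lines derived from T-cells, and CLBL-1 (5 samples), CLBL-1M (5 samples) and GL-1 (1 sample) are lines derived from B-cells. CLBL-1M was grown from a tumor that CLBL-1 had formed in a mouse, and samples of a line repeat that line, so that their spread is not a spread between dogs. The intestinal lymphomas and the T-cell lymphoma formed the group of 4 probable T-cell lymphomas. Flow cytometry left the intestinal lymphomas unresolved, and the study assigned them from their expression profiles in these same samples. The T-cell lineage of 3 of the 4 tumors was therefore not given independently of gene expression, and lineage cannot be told apart from the intestinal site in these 3.

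T-cells mature in the thymus, recognize antigen through the T-cell receptor and fill the paracortex of the lymph node, while B-cells fill its follicles. A non-neoplastic node therefore holds both lineages, and a lymphoma replaces much of this mixture by the progeny of a single lymphocyte. A transcript from T-cells can be read in a B-cell lymphoma from the T-cells that remain in it. In such bulk samples, fewer cells of a type and less RNA per cell cannot be told apart.

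The files name genes by Ensembl identifier only, and none of these identifiers was paired with a symbol in the reference used here. The T-cell markers could therefore not be looked up, and the name T-cell genes was not checked: the 115 genes are called members below. Functional terms were at hand for 29 members, taken from the study's annotation of genes that differed from controls in these samples. The terms say what a gene is annotated to do, cover only part of the genes, and are no independent evidence for a direction. For the other 86 members no function is stated. The gene lists at hand were cut at no more than 20 genes per term, so a member with no term here may still be annotated.

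Each sample had 1962722 to 4863730 counts on genes, with a median of 2942360, so that 1 count stood for 0.206 to 0.509 CPM. Reads that overlapped several genes made up 0.363 to 0.549% in the cell lines and 0.0977 to 0.229% in the lymphomas and controls 1 to 3. The figure was 0.476% in control 4, within the range of the cell lines, and the source label of control 4 names a T-cell line while its title names a control. Of the 69 genes of the opposite set, 56 reached 10 CPM in control 4, against 53 or 54 in controls 1 to 3. In the OSW and CL-1 samples the rule fixed this number at 0. The origin of control 4 was not tested. Counts of members against the controls are therefore also given without control 4. The flow cytometry entries of the labels go against the titles in many samples and were not used.

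In the lines that chose them, the members ranged from low to abundant. ENSCAFG00000003987 had the highest mean over the OSW and CL-1 samples (743.8 CPM), with 1050 to 1106 CPM in OSW and 66.7 to 79.1 CPM in CL-1. It was followed by ENSCAFG00000012880, with 343.7 to 534.1 CPM in OSW and 27.0 to 27.2 CPM in CL-1. Both were far higher in OSW, but the members as a whole were not: the median log2 ratio of OSW to CL-1 was -0.31, with a range from -4.77 to 4.05. In 14 members the mean was more than 4-fold higher in OSW and in 10 it was more than 4-fold higher in CL-1.

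Close to the upper limit, ENSCAFG00000012800 (lowest value 10.155 CPM) and ENSCAFG00000016185 (10.176 CPM) were just inside, and ENSCAFG00000003785 (9.9656 CPM) and ENSCAFG00000024834 (9.92 CPM) just outside. Close to the lower limit, ENSCAFG00000011525 (highest CLBL value 0.94679 CPM), annotated to restrict viral genome replication, and the adherens junction gene ENSCAFG00000004626 (0.8929 CPM) were inside. ENSCAFG00000030205 and ENSCAFG00000005839 (both 1.0196 CPM) were outside. In CLBL-1 and CLBL-1M, 33 members had no count in any of the 10 samples.

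The samples that the rule did not use showed how far the members were on outside the lines. In the controls 76, 82, 77 and 84 of the 115 members reached 10 CPM. In the B-cell lymphomas the number was 19 at the lowest, 28 at the median and 55 at the highest. Intestinal lymphomas 1, 2 and 3 had 55, 47 and 71 members at 10 CPM or more, and the T-cell lymphoma had 56. The controls had the highest numbers, as they did over all genes tested, and the probable T-cell lymphomas lay above 11 of the 12 B-cell lymphomas, of which none but B-cell lymphoma 7 exceeded 39.

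The summed level of the members separated the tumor groups without overlap, but their median level did not. The sum was 639.1 to 1960 CPM in the B-cell lymphomas, and 3740, 4367, 6185 and 4573 CPM in intestinal lymphomas 1, 2 and 3 and the T-cell lymphoma. The median member had 1.57 to 9.66 CPM in the B-cell lymphomas, and 8.43, 4.02, 20.2 and 9.46 CPM in these 4 tumors. The controls summed to 4467, 5850, 4601 and 4525 CPM, within the range of the probable T-cell lymphomas. For scale, the sums were 7595 to 8871 CPM in OSW and CL-1 and 3.02 to 12.2 CPM in CLBL-1 and CLBL-1M, which the rule fixed.

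The opposite gene set ran the other way in the tumors. Of its 69 genes, 48 to 58 reached 10 CPM in the B-cell lymphomas and 53 to 56 in the controls, but 19, 18 and 20 in intestinal lymphomas 1, 2 and 3 and 25 in the T-cell lymphoma. Over all 15162 genes tested the share at 10 CPM or more was 60.9 to 64.0% in the B-cell lymphomas, 61.2 to 64.7% in the probable T-cell lymphomas, and 69.4 to 72.7% in the controls. In the controls the share of the members, 66.1 to 73.0%, was near that of all genes.

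**Figure D1:**
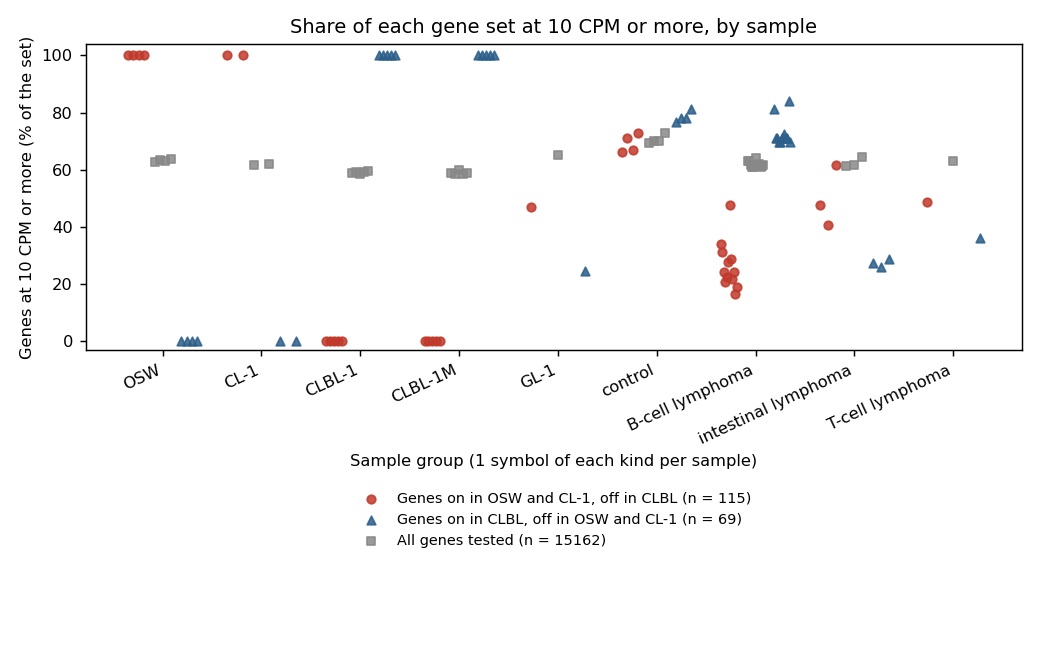
Share of genes at 10 CPM or more (vertical axis, percent of each gene set) in every sample, grouped along the horizontal axis, for the 115 members (circles), the 69 genes of the opposite set (triangles) and all 15162 genes tested (squares). The 4 cell line groups used by the rule are at 0 or 100% by construction, the B-cell lymphomas have fewer members on than the controls, and the probable T-cell lymphomas have fewer genes of the opposite set on than the B-cell lymphomas and controls.

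GL-1, a B-cell line that the rule left out, was not silent like CLBL-1. Of the 115 members, 54 reached 10 CPM in its single sample, 13 lay between 1 and 10 CPM and 48 lay below 1 CPM, 35 of these without a count. The members at 10 CPM or more made up 47.0% of the 115, less than the 65.2% of all genes tested in this sample. The sum was 4228 CPM, and of the opposite set only 17 of 69 genes reached 10 CPM. With a single sample these are values without a test.

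The 5 highest members in GL-1 included ENSCAFG00000002728 (317.7 CPM) and ENSCAFG00000007273 (291.1 CPM), for which no function is stated. The others named by function were ENSCAFG00000008853 (248.4 CPM), which acts in cell-matrix adhesion and Ras signaling, and the G1/S transition gene ENSCAFG00000030397 (233.7 CPM). ENSCAFG00000001998, annotated to T-cell differentiation, had 201.1 CPM in GL-1. The T-cell activation gene ENSCAFG00000018401 had 0.701 CPM there. Of the 6 members with lymphocyte and immune terms, 3 reached 10 CPM in GL-1. Besides ENSCAFG00000001998 these were ENSCAFG00000009632 (41.7 CPM) and ENSCAFG00000016700 (14.4 CPM). ENSCAFG00000031104 (7.36 CPM) and ENSCAFG00000016077 (2.80 CPM) did not reach it. In all, 33 of the 54 members on in GL-1 were also on in all 4 controls, 8 were on in no control, and 20 stayed below 10 CPM in every B-cell lymphoma. Of all genes tested, 62.5% were on in all 4 controls and 20.6% in none. The shares among all genes on in GL-1 were not computed, so these counts are a description only.

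In the controls, 64 members (55.7%) reached 10 CPM in all 4 samples and 22 (19.1%) in none, against 62.5% and 20.6% of all genes tested. The members were thus on in the controls about as often as other genes. Without control 4 the numbers were 65 and 24, against 64.1% and 24.4% of all genes tested. The highest median belonged to ENSCAFG00000011172, with 247.8, 417.8, 351.7 and 241.7 CPM in controls 1 to 4, followed by ENSCAFG00000020104 with 190.7, 539, 245.9 and 285.1 CPM. In the B-cell lymphomas these 2 genes reached at most 95.4 and 54.7 CPM, below every control. Both were members with no stated function.

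Only 3 members stayed below 1 CPM in all controls, namely ENSCAFG00000009014, ENSCAFG00000009658 and ENSCAFG00000013649, here singled out after their values were seen. ENSCAFG00000009014 was the only member below 1 CPM in all 20 tissue samples, where it had no count at all. It had 46.5 to 80.4 CPM in OSW, 104.5 and 106.2 CPM in CL-1 and 3.50 CPM in GL-1. Altogether 10 members stayed below 10 CPM in all 20 tissue samples.

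**Figure D2:**
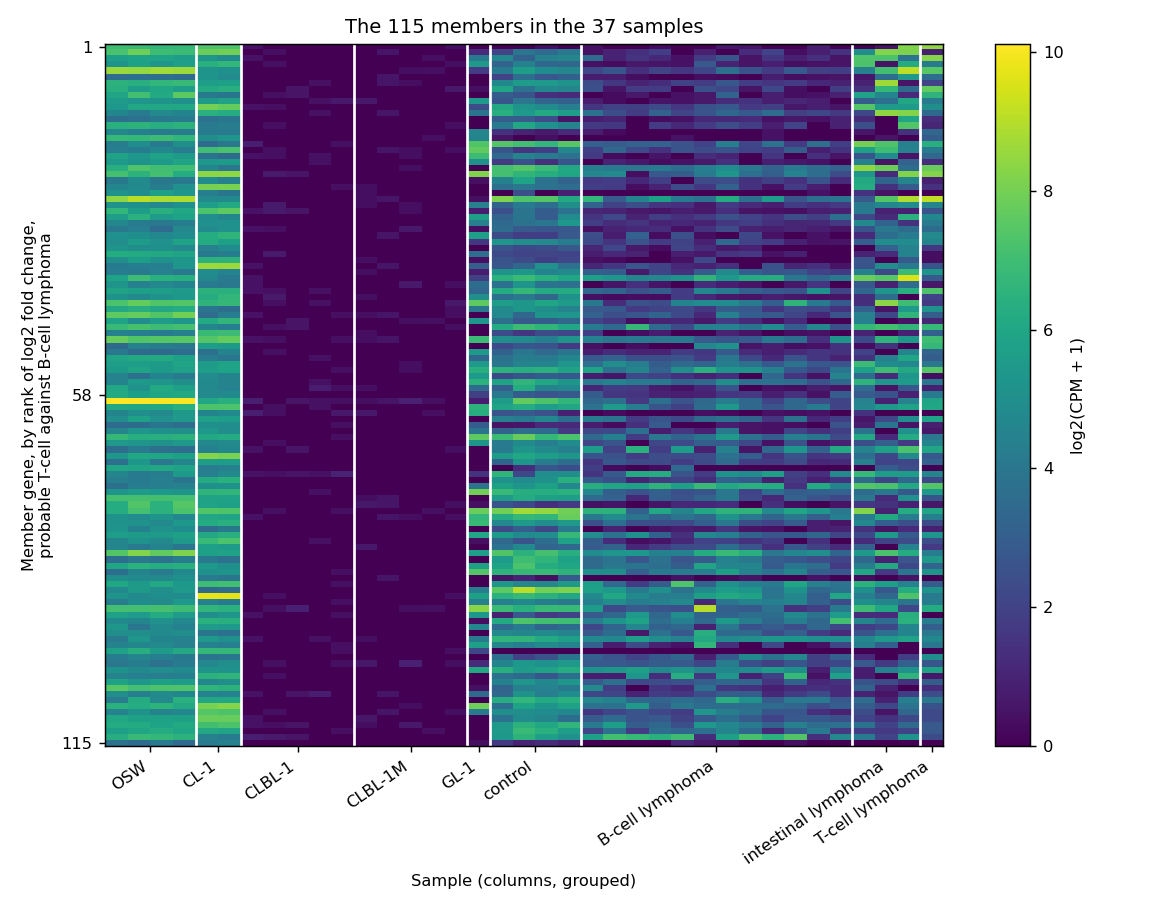
Expression of the 115 members, as log2(CPM + 1) by color, in each of the 37 samples (columns, grouped). Rows are ordered from the highest to the lowest log2 fold-change of probable T-cell against B-cell lymphoma. The rule fixes the light OSW and CL-1 and the dark CLBL-1 and CLBL-1M columns, while GL-1 is mixed, the controls are mostly light and the probable T-cell lymphomas differ from each other.

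The comparison of probable T-cell with B-cell lymphomas asked whether genes chosen in cell lines also differ between tumors. The study had placed the intestinal lymphomas in the former group by their expression in these same samples. The grouping was therefore not independent of the values compared. Of the 115 members, 21 were higher and 0 were lower in probable T-cell lymphomas at an adjusted p-value of at most 1e-05, by the edgeR quasi-likelihood test with Benjamini-Hochberg adjustment over all genes. Over all genes tested 3.11% were called higher and 1.06% lower. At a threshold of 0.05 there were 65 higher and 3 lower members, against 19.5% and 11.5% of all genes. The median log2 fold-change was 1.76 for the members and 0.05 for all genes. This test shares the spread of all 37 samples, which include repeats of cell lines, so it is not only a spread between dogs. With only both tumor groups in the fit, 3 members were called, all higher, where 30 of all genes were higher and 26 lower. Several genes named below lost their call in this fit. They were ENSCAFG00000013649, ENSCAFG00000010148, ENSCAFG00000009632, ENSCAFG00000016700, ENSCAFG00000003663, ENSCAFG00000018401, ENSCAFG00000001998, ENSCAFG00000000311 and ENSCAFG00000016413 (edgeR adjusted p = 2.1e-05 to 0.0015). All 115 members passed the filter on low values, which uses the highest CPM over all samples, the cell lines that chose them included. Of these members, 10 stayed below 10 CPM in all 20 tissue samples.

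Lymphocyte and immune genes made up 6 of the members with a term, and 4 of these 6 were higher in probable T-cell lymphomas. The tyrosine kinase ENSCAFG00000009632, which has an immunoglobulin domain and is annotated to lymphocyte differentiation, had 6.64, 12.1 and 64.2 CPM in intestinal lymphomas 1, 2 and 3 and 17.5 CPM in the T-cell lymphoma. In the B-cell lymphomas it had 0 CPM at the lowest, 0.687 CPM at the median and 1.77 CPM at the highest. The groups did not overlap, and the log2 fold-change was 5.07 (SE 0.48, adjusted p = 1.1e-09, edgeR). ENSCAFG00000001998, annotated to T-cell differentiation, had 52.9, 125.9, 21.5 and 16.6 CPM in the same order and at most 9.12 CPM in the B-cell lymphomas (log2 fold-change 3.83, SE 0.44, edgeR adjusted p = 4.3e-08).

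The other 2 called immune genes were high in only part of the tumors. The alpha-beta T-cell activation gene ENSCAFG00000016700 had 340.5 and 299.3 CPM in intestinal lymphomas 2 and 3. In intestinal lymphoma 1 it had 3.58 CPM and in the T-cell lymphoma 9.74 CPM, within the 2.26 to 13 CPM of the B-cell lymphomas, so that the groups overlapped (log2 fold-change 4.75, SE 0.53, edgeR adjusted p = 2.6e-08). ENSCAFG00000018401, annotated to T-cell differentiation and activation, had 17.4 and 5.16 CPM in intestinal lymphoma 1 and the T-cell lymphoma. It had 0.893 and 0.897 CPM in intestinal lymphomas 2 and 3, against 0.28 to 1.65 CPM in the B-cell lymphomas (log2 fold-change 3.06, SE 0.47, edgeR adjusted p = 6.6e-06). Without intestinal lymphoma 1 its log2 fold-change was 1.65 and the call was lost (edgeR adjusted p = 0.0096), as it was, at 1.3e-05, without the T-cell lymphoma and without B-cell lymphoma 6.

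The remaining 2 immune genes did not pass 1e-05. ENSCAFG00000031104, annotated to leukocyte chemotaxis, had 5.11, 30.4, 16.6 and 5.16 CPM in the 4 tumors and at most 5.61 CPM in the B-cell lymphomas (edgeR adjusted p = 3.0e-05). ENSCAFG00000016077, of the cytokine receptor interactions, had 6.39, 4.91, 0.897 and 16.9 CPM and at most 6.88 CPM in the B-cell lymphomas (edgeR adjusted p = 0.012).

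The 3 further called members with a term were ENSCAFG00000010148, ENSCAFG00000029666 and ENSCAFG00000003663. ENSCAFG00000010148, listed in the pathway of microRNAs in cancer, had 31.2, 299.0 and 275.5 CPM in intestinal lymphomas 1, 2 and 3 but 0.860 CPM in the T-cell lymphoma, and 0 to 3.13 CPM in the B-cell lymphomas (log2 fold-change 7.03, SE 0.62, edgeR adjusted p = 2.1e-10). It separated the intestinal lymphomas from the B-cell lymphomas and left the T-cell lymphoma among the latter. The RNA binding gene ENSCAFG00000029666 had 167.8, 46.4, 43.1 and 31.5 CPM against 0.452 to 5.96 CPM in the B-cell lymphomas (log2 fold-change 4.79, SE 0.40, edgeR adjusted p = 3.7e-10). ENSCAFG00000003663, listed under viral carcinogenesis, had 255.2, 160.7, 20.2 and 80.5 CPM against 2.52 to 19.1 CPM (log2 fold-change 4.15, SE 0.41, edgeR adjusted p = 6.8e-09). For these last 2 genes each of the 4 tumors exceeded each B-cell lymphoma.

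Of the 86 members without a stated function 14 were up-regulated, and the largest fold-change was found here. ENSCAFG00000013649 had 288.5 CPM in intestinal lymphoma 3 and 345.0 CPM in the T-cell lymphoma, but 0 and 0.446 CPM in intestinal lymphomas 1 and 2. It had 0 to 0.783 CPM in the B-cell lymphomas and no count in GL-1. It was thus on in just a pair of the 4 tumors (log2 fold-change 9.30, SE 0.84, edgeR adjusted p = 4.0e-10). ENSCAFG00000014224 had 161.7, 150, 13.5 and 310.6 CPM in the 4 tumors and at most 10.7 CPM in the B-cell lymphomas, without overlap (log2 fold-change 6.10, SE 0.50, edgeR adjusted p = 3.0e-11).

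In 8 members each of the 4 probable T-cell lymphomas exceeded each of the 12 B-cell lymphomas, and in none did they all fall below. Over all genes tested these shares were 1.64% and 2.4%. The 8 comprise ENSCAFG00000001998, ENSCAFG00000003663, ENSCAFG00000009632, ENSCAFG00000014224 and ENSCAFG00000029666 above, and 3 more members with no stated function.

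**Figure D3:**
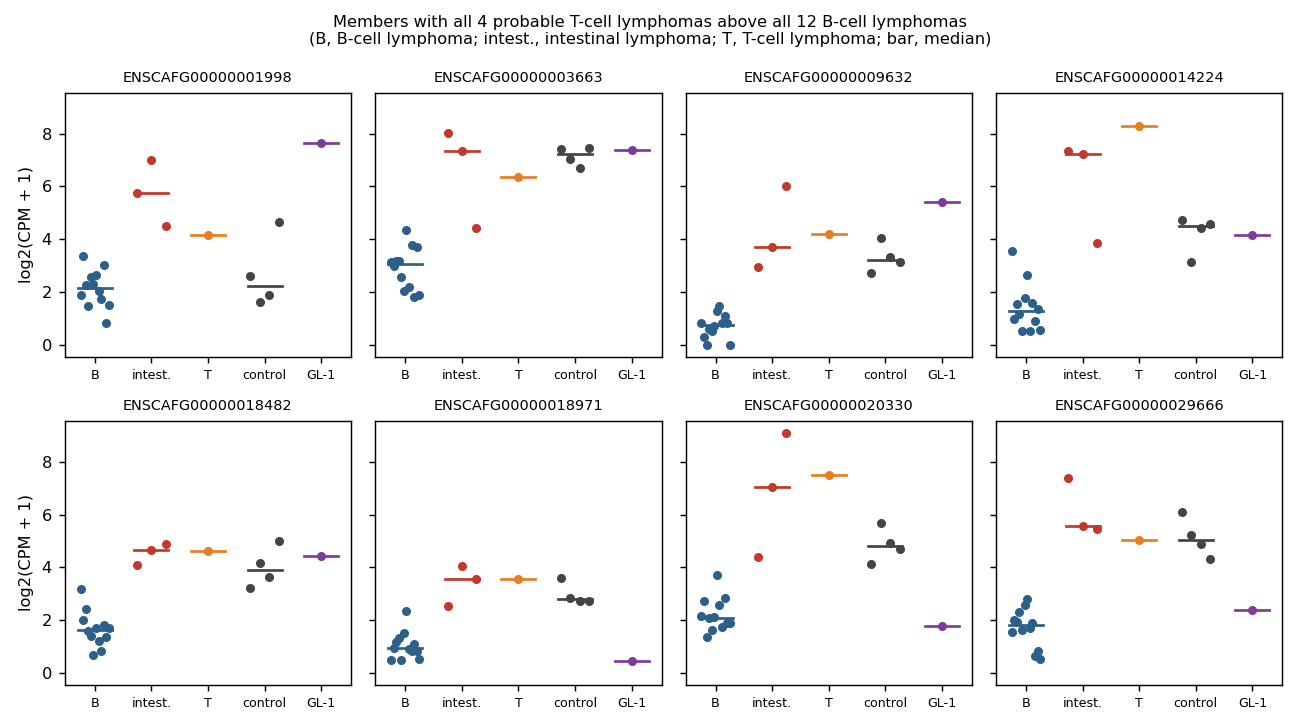
The 8 members in which all 4 probable T-cell lymphomas lay above all 12 B-cell lymphomas, as log2(CPM + 1) per sample (points) with the median of each group (bars), by group along the horizontal axis. These genes were picked for this separation, and in each panel the 4 tumor points lie above the 12 B-cell lymphoma points. GL-1 is high in some panels and low in others.

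No member was called lower at 1e-05, and the 3 lower ones at 0.05 included 2 of the 7 members of kinase and growth factor signaling. ENSCAFG00000003406, a tyrosine-protein kinase gene of endothelial cell migration, had 2.56, 2.23, 3.14 and 6.02 CPM in the 4 tumors and 1.17 to 23.4 CPM in the B-cell lymphomas (log2 fold-change -1.37, SE 0.52, edgeR adjusted p = 0.043). ENSCAFG00000008612, of platelet-derived growth factor receptor signaling, had 3.07, 1.79, 3.59 and 3.73 CPM against 2.88 to 11.5 CPM (log2 fold-change -0.98, SE 0.37, edgeR adjusted p = 0.040). The third, ENSCAFG00000012724, had 17.4, 3.12, 36.3 and 4.01 CPM against a median of 85 CPM and a range of 1.52 to 164.2 CPM. All 3 overlapped between the groups. In the whole signaling group 1 member was higher and 2 were lower at 0.05, with a median log2 fold-change of -0.93.

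Genes of adhesion, junction and matrix numbered 7. None passed 1e-05 between the tumor groups, and 5 were higher at 0.05. The adherens junction gene ENSCAFG00000012012 had 21.2, 3.57, 97.8 and 6.88 CPM against 1.18 to 19.9 CPM (log2 fold-change 2.35, edgeR adjusted p = 4.0e-04). Of the 2 G1/S transition genes, ENSCAFG00000009287 had 7.66, 0.446, 42.6 and 36.1 CPM against 1.81 to 6.99 CPM (log2 fold-change 2.45, edgeR adjusted p = 9.1e-05), above every B-cell lymphoma in all but intestinal lymphoma 2.

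**Figure D4:**
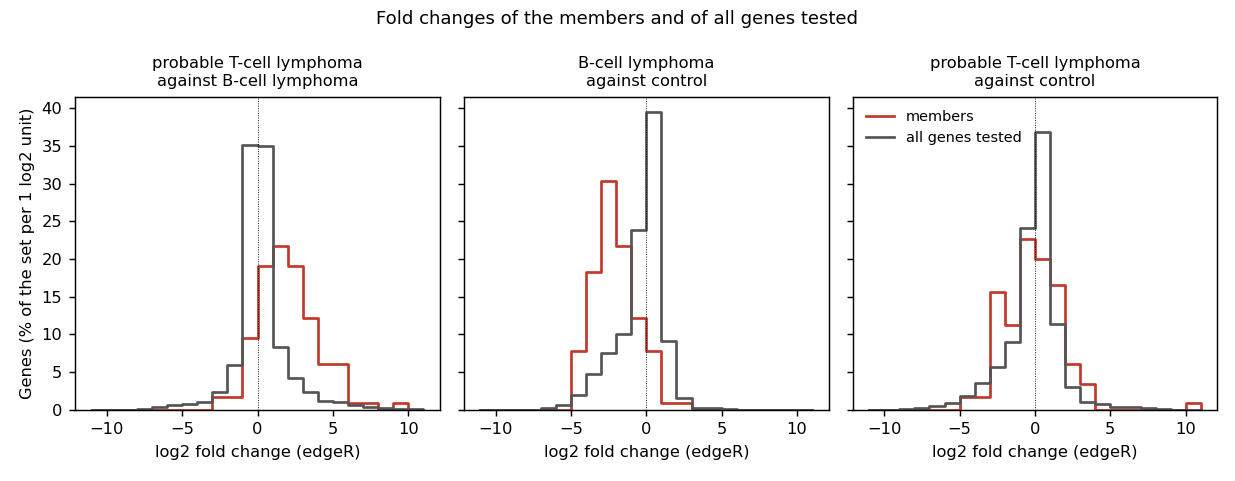
Distribution of edgeR log2 fold-changes (horizontal axis, 1 log2 unit per step) of the 115 members and of all 15162 genes tested (vertical axis, percent of each set) in the 3 comparisons. The members' median is 1.76 for probable T-cell against B-cell lymphoma, -2.26 for B-cell lymphoma against control and -0.16 for probable T-cell lymphoma against control; these comparisons share samples.

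Taken tumor by tumor, the members differed widely among the 4 probable T-cell lymphomas. The number of members above all 12 B-cell lymphomas was 42 in intestinal lymphoma 1, 42 in intestinal lymphoma 2, 55 in intestinal lymphoma 3 and 46 in the T-cell lymphoma. The corresponding shares of all genes tested were 17.9%, 15.5%, 20.2% and 18%. By gene, 24 members exceeded all B-cell lymphomas in none of the tumors, 33 in 1, 30 in 2, 20 in 3 and 8 in 4. Similarly, 20 members reached 10 CPM in all 4 tumors and 20 in none. Among these counts by gene, a share of all genes tested was at hand only for exceeding all B-cell lymphomas in all 4 tumors (1.64%). Whether the differences between tumors are particular to the members was not tested.

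The members with the highest level also changed from tumor to tumor. In intestinal lymphoma 1 the highest was ENSCAFG00000016413 (342.1 CPM), which had 226.3, 10.8 and 216.9 CPM in intestinal lymphomas 2 and 3 and the T-cell lymphoma. In intestinal lymphoma 2 it was ENSCAFG00000000311 (404.8 CPM), and in the other tumors this gene had 1.02, 0.449 and 3.15 CPM. Its log2 fold-change against the B-cell lymphomas of 5.39 (SE 0.72, edgeR adjusted p = 5.5e-07) rested on that tumor, since without it the value was -0.56. In intestinal lymphoma 3 the highest was ENSCAFG00000003393 (744.4 CPM), which had 223.3, 178.1 and 6.02 CPM in intestinal lymphomas 1 and 2 and the T-cell lymphoma. In the T-cell lymphoma it was ENSCAFG00000012880 (562.8 CPM), which had 6.13, 167.8 and 474.3 CPM in intestinal lymphomas 1, 2 and 3.

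The comparison of B-cell lymphomas with controls set the level of the members in a B-cell tumor against that in a non-neoplastic node. Here 25 members were down-regulated and 0 up-regulated at 1e-05 by edgeR, where 3.15% of all genes were lower and 2.38% higher. At 0.05, 85 members were lower and 1 was higher, against 24% and 22.9% of all genes. The median log2 fold-change was -2.26 for the members and 0.01 for all genes. In 54 members all 12 B-cell lymphomas were below all 4 controls, as in 12.7% of all genes. Without control 4 there were 16 members called and without control 2 there were 10, each of them lower. Over all genes 292 and 210 were lower in these fits, and 107 and 115 higher. Also without control 4, the median was -2.22, 79 members were lower and 0 higher at 0.05, and 59 lay below the remaining controls in all B-cell lymphomas. Over all genes the median was then 0.04, 19.4% were lower, 19.25% higher and 14.8% below the remaining controls. With only the groups compared in the fit there were 14, where 246 of all genes were lower and 22 higher. DESeq2 called 40, where 997 of all genes were lower and 513 higher. Fitting only these groups lost, among others, the calls of ENSCAFG00000009632, ENSCAFG00000004626, ENSCAFG00000010407, ENSCAFG00000025057, ENSCAFG00000003406 and ENSCAFG00000031038 (edgeR adjusted p = 1.8e-05 to 2.3e-04).

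Members with a term were chosen by the study among genes that differed from the controls in these samples, so a count of calls against the controls in a functional group is a description only. Of 7 adhesion, junction and matrix genes, 5 were called lower in B-cell lymphomas (2 without control 4), and of the 86 members with no term 14 were. ENSCAFG00000013925, a regulator of smooth muscle cell migration, had 46.5, 66.2, 50.1 and 39.6 CPM in the controls and 1.96 to 12.8 CPM in the B-cell lymphomas (log2 fold-change -3.30, SE 0.36, edgeR adjusted p = 1.9e-07). ENSCAFG00000008853, of cell-matrix adhesion, had 111.3, 76.9, 78.4 and 86.1 CPM in the controls and at most 24.5 CPM in the B-cell lymphomas (log2 fold-change -3.18, SE 0.35, edgeR adjusted p = 8.1e-08). In both genes every B-cell lymphoma lay below every control. The other 3 were the extracellular matrix gene ENSCAFG00000025057 (log2 fold-change -3.23) and the adherens junction genes ENSCAFG00000010407 (-2.96) and ENSCAFG00000004626 (-2.43). These 3 calls were lost without control 2 and without control 4, at edgeR adjusted p-values of 6.4e-05, 6.0e-05 and 4.5e-05 without control 2 and of 2.0e-05, 1.7e-05 and 3.4e-05 without control 4. ENSCAFG00000025057 (1.3e-05) and ENSCAFG00000010407 (1.5e-05) also lost theirs without control 1, and ENSCAFG00000010407 (1.9e-05) and ENSCAFG00000004626 (1.7e-05) without control 3.

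Among the 6 lymphocyte and immune genes, ENSCAFG00000009632 and ENSCAFG00000018401 were down-regulated. ENSCAFG00000009632 had 5.48, 15.3, 8.90 and 7.82 CPM in controls 1 to 4 (log2 fold-change -3.54, SE 0.51, edgeR adjusted p = 1.8e-06). ENSCAFG00000018401 had 4.56, 13.3, 6.92 and 13.04 CPM (log2 fold-change -3.41, SE 0.47, edgeR adjusted p = 1.2e-06). Both were above every B-cell lymphoma in each control. Without control 2 both calls were lost (edgeR adjusted p = 4.7e-05 and 2.3e-05), and without control 4 that of ENSCAFG00000018401 (1.7e-05). ENSCAFG00000001998 was not called (log2 fold-change -0.93, SE 0.50, edgeR adjusted p = 0.13): it had 5.02, 2.04 and 2.64 CPM in controls 1 to 3 and 24.3 CPM in control 4, without which its value was 0.38 (edgeR adjusted p = 0.63).

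Members with other terms and with no term were also among those called lower. ENSCAFG00000003663, of viral carcinogenesis, had 169.7, 131.5, 103.5 and 176.0 CPM in the controls (log2 fold-change -4.10, SE 0.41, edgeR adjusted p = 2.9e-08). ENSCAFG00000020243, annotated to the response to organic substances, had 73.0, 104.4, 101.2 and 214.7 CPM in the controls and at most 34.3 CPM in the B-cell lymphomas (log2 fold-change -2.81, SE 0.32, edgeR adjusted p = 7.8e-08). The lowest fold-changes were those of ENSCAFG00000031038 (-4.63, SE 0.58, edgeR adjusted p = 2.6e-07) and ENSCAFG00000023874 (-4.54, SE 0.51, edgeR adjusted p = 7.8e-08), for which no function is stated.

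A single member was higher in B-cell lymphomas at 0.05. ENSCAFG00000010971 had 0.913, 6.11, 2.31 and 3.04 CPM in controls 1 to 4, and 6.50 CPM at the lowest, 11.2 CPM at the median and 47.4 CPM at the highest in the B-cell lymphomas (log2 fold-change 2.70, SE 0.94, edgeR adjusted p = 0.019), and it did not pass 0.05 without control 4 (edgeR adjusted p = 0.053). It was also the only member with all B-cell lymphomas above all controls, as in 5.09% of all genes.

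B-cell lymphoma 7 had the highest value among the 12 B-cell lymphomas for 42 members (36.8% of those with a count), where it held the highest value of 12.4% of all genes tested. It also had the largest share of all genes at 10 CPM or more in its group (64.0%), and its summed level of the members, 1914 CPM, was below the 1960 CPM of B-cell lymphoma 6. Without B-cell lymphoma 7, 23 members were called higher in probable T-cell lymphomas and 29 lower in B-cell lymphomas than in controls. Over all genes 428 and 500 were called in these directions. In B-cell lymphoma 6, ENSCAFG00000002728 reached 523.0 CPM, against a median of 6.38 CPM over the 12. Without it, this gene was called lower in B-cell lymphomas than in controls (log2 fold-change -3.29, edgeR adjusted p = 5.7e-06), and with it the value was -0.82 (SE 0.93, edgeR adjusted p = 0.49).

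Against the controls, few members were called in probable T-cell lymphomas at 1e-05, and at 0.05 more were lower than higher. A single member was called higher and a single member lower at 1e-05 by edgeR, where 1.33% of all genes were higher and 0.587% lower. At 0.05 there were 12 higher and 28 lower members, against 21.4% and 15.9% of all genes. The median log2 fold-change was -0.16 for the members and 0.09 for all genes. In 22 members all 4 tumors were below all 4 controls, as in 16% of all genes, and in 1 member (ENSCAFG00000017782) all were above, as in 8.77% of all genes. Without any 1 of the controls, control 4 included, no member passed 1e-05. Over all genes 58 to 105 were higher and 53 to 72 lower in these fits. With only the groups compared the count was 0 for the members and 0 for all genes. Without control 4 the median was -0.15, 8 members were higher and 23 lower at 0.05, and in 26 all 4 tumors were below the remaining controls. Over all genes the shares were then 18.1%, 12.9% and 18.2%.

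The member called higher was ENSCAFG00000013649, which had 1 count over all 4 controls and 1848 counts over the 4 tumors, nearly all from intestinal lymphoma 3 and the T-cell lymphoma. The ratio of pooled CPM was 1477, with an exact 95% interval of 264.7 to 58370 for counting error only (edgeR adjusted p = 6.0e-06). The member called lower was the tyrosine-protein kinase gene ENSCAFG00000003406, with 43.4, 115.1, 85.7 and 48.7 CPM in the controls and at most 6.02 CPM in the tumors (log2 fold-change -4.21, SE 0.63, edgeR adjusted p = 6.7e-06). In the B-cell lymphomas this gene was lower than in the controls too (log2 fold-change -2.84, SE 0.40, edgeR adjusted p = 1.4e-06), a call lost without control 2 (5.3e-05) and without control 3 (1.4e-05).

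By functional group, and again as a description only, 4 of 7 signaling genes were lower than in the controls at 0.05, with a median log2 fold-change of -2.47. Of 7 adhesion, junction and matrix genes 5 were lower, with a median of -1.87, and of the 86 members with no term 17 were. Without control 4, 4 signaling and 4 adhesion, junction and matrix genes were lower. For example, ENSCAFG00000018159, an ATP-binding protein gene, had 42.9, 89.2, 64.9 and 99.5 CPM in the controls and 13.03, 3.12, 10.3 and 6.02 CPM in the 4 tumors (log2 fold-change -2.98, SE 0.56, edgeR adjusted p = 1.3e-04). ENSCAFG00000015982, annotated to ATP binding and cell migration, had 58.9, 76.4, 50.4 and 60.9 CPM in the controls and 24.8, 41.95, 57.9 and 65.9 CPM in the tumors, and the groups overlapped (log2 fold-change -0.23, SE 0.56, edgeR adjusted p = 0.79). Among the 6 lymphocyte and immune genes 2 were higher and none lower at 0.05. These were ENSCAFG00000001998 (log2 fold-change 2.90, edgeR adjusted p = 6.0e-04), which in control 4 had a value above 2 of the 4 tumors, and ENSCAFG00000009632 (log2 fold-change 1.53, edgeR adjusted p = 0.041). Without control 4 the former remained past 0.05 (edgeR adjusted p = 3.5e-05) and the latter did not (0.099).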

How the data were processed

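Per the labels and the study's methods, the authors sequenced poly-A RNA, aligned it to the CanFam3.1 genome (BWA), dropped duplicates (Picard) and counted Ensembl release 85 genes (HTSeq 0.6.1). The deposited values are raw, unscaled counts. The strand setting is not given in the sources used here, so reads of overlapping antisense genes may be shared.

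Groups followed the sample titles. CPM used the sum of all 32704 genes. The 15162 genes whose highest CPM exceeded the 40th percentile of genes with a count were fitted in edgeR 4.0.16 (R 4.3.3) with TMM factors and a quasi-likelihood model of 8 groups and all 37 samples, called at an adjusted p-value of 1e-05. The SE of a log2 fold-change was derived from its size and its F statistic. DESeq2 1.42.0, RLE factors, library size alone, other filters, fewer samples, a replicate block and other thresholds were alternatives, and leaving out B-cell lymphomas 6 or 7, or control 4 for the counts of members that do not overlap, was added after seeing the data. The procedure was tested on simulated counts.

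Members, functional groups and gene lists were chosen with earlier results of these data known. The genes named are those with extreme fold-changes or levels in each group, at most 2 per direction among genes without a function, those next to a limit of the rule, and members with a term. ENSCAFG00000010971, ENSCAFG00000009014, ENSCAFG00000009658, ENSCAFG00000017782 and the functional grouping were singled out after the values were seen. The marker lists planned by symbol could not be used. Between 68.0 and 82.9% of the reads fell outside genes and were left out. The closest pair of samples of a group still differed by more than sampling noise (chi-square per degree of freedom 1.325), so none was merged.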

Additional observations from a re-analysis of the deposited data

Results flagged for a closer look

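Among 82 sets of 4 samples, 10 had a sample far from the other 3. Chance flags about 1 in 20 such sets, but many of the genes were named for their extreme values, so this rate does not apply to them. In the controls, control 2 had the highest summed level of the members (5850 CPM). It was also highest for ENSCAFG00000031038 (36.2 CPM) and lowest for ENSCAFG00000002728 (84.6 CPM). Control 4 was high for ENSCAFG00000001998 (24.3 CPM), annotated to T-cell differentiation. Control 1 was high for the cytokine receptor interaction gene ENSCAFG00000016077 (15.5 CPM). Control 3 held the single count of ENSCAFG00000013649 (0.330 CPM).

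In the probable T-cell lymphomas, intestinal lymphoma 1 was high for ENSCAFG00000029666 (167.8 CPM), intestinal lymphoma 2 for ENSCAFG00000000311 (404.8 CPM) and ENSCAFG00000020243 (70.5 CPM), and intestinal lymphoma 3 for ENSCAFG00000010971 (81.2 CPM).

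In 17 of the 21 members that differed between the tumor groups, the fitted value against the controls was positive in probable T-cell and negative in B-cell lymphomas. Both values share the controls, and the difference itself was tested by edgeR. The 21 were picked for a large difference, which favors opposite signs, and the share among all called genes was not computed. Some of the positive values were close to none, such as 0.05 for ENSCAFG00000003663. For members named in the text the log2 difference was 7.03 for ENSCAFG00000010148, 6.10 for ENSCAFG00000014224, 5.39 for ENSCAFG00000000311, 5.07 for ENSCAFG00000009632, 4.79 for ENSCAFG00000029666, 4.75 for ENSCAFG00000016700, 4.15 for ENSCAFG00000003663, 3.83 for ENSCAFG00000001998 and 3.72 for ENSCAFG00000016413. The value against the controls alone was called in none of these 9 probable T-cell comparisons.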

How the results depend on the processing

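Between the tumor groups, 20 to 24 members were called without 1 of the 4 probable T-cell lymphomas or B-cell lymphoma 6 or 7 (the other B-cell lymphomas were not left out), 68 at a threshold of 0.05 and 3 with only the groups compared. DESeq2, RLE factors, library size and other filters gave 20 to 24, all higher. Over all genes these alternatives called 443 to 647 higher and 145 to 354 lower. For B-cell lymphoma against control, leaving out a control or B-cell lymphoma 6 or 7 gave 10 to 29, DESeq2 40, the groups compared 14 and a threshold of 0.05 gave 86. For probable T-cell lymphoma against control, leaving out a control or a probable T-cell lymphoma gave 0 to 2, DESeq2 8, library size alone 1, intestinal lymphomas alone 1, the groups compared 0 and 0.05 gave 40. For probable T-cell lymphoma against control, DESeq2 called 416 of all genes higher and 431 lower. The cause of these changes was not tested. RLE factors moved the median of all genes for B-cell lymphoma against control to -0.20 (174 higher, 644 lower) and library size alone to -0.11 (188 higher, 568 lower), from 0.01 (361 higher, 478 lower). The members' direction was the same.

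The titles share replicate numbers between groups. Over 76 pairs, samples with the same number deviated from their group means with a mean correlation of -0.0097, and samples with different numbers with 0.0017, so the numbers do not pair samples. With a replicate block, 1, 0 and 0 members were called in the 3 comparisons. The calls over all genes were fewer too, with 30 higher and 72 lower in probable T-cell against B-cell lymphoma. They were 21 and 7 for B-cell lymphoma against control, and 51 and 45 for probable T-cell lymphoma against control.

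Without intestinal lymphoma 2, ENSCAFG00000000311 turned to -0.56 against B-cell lymphomas and to -4.35 against controls, and without other samples it reached 5.80 and 2.01. Members numbered 176 at 5 CPM or more in the T-cell lines and 61 at 20 CPM, and 115 to 128 without 1 sample. At 1 CPM in place of 10, the median of members on was 108.5 in controls, 80.5 in B-cell lymphomas, 96.5 in probable T-cell lymphomas and 67 in GL-1. TMM-scaled CPM gave 51 in GL-1. Depth limits low members: 3 counts are 0.617 to 1.53 CPM, so a gene below 1 CPM cannot be called absent. With 4 controls and 4 probable T-cell lymphomas, calls against controls rest on few animals.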
